A study of Arabidopsis thaliana with 18 samples.

Results

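HYH (AT3G17609, listed in the gene table as HY5-homolog) is a gene of Arabidopsis thaliana for a basic leucine zipper (bZIP) transcription factor, and it is followed here over 18 arrays of far-red-treated seedlings. The gene was measured by 1 probe set that the platform's probe table assigned to HYH and to no other gene, out of 22746 probe sets tested and 13513 that named 1 gene. The study set seedlings of the pif4pif5 mutant, which lacks the transcription factors PIF4 and PIF5, against the wild type, both in the Columbia background. Seeds of every group, about 100 to a plate, spent 3 days in the cold and dark, germinated after a 3 h red light treatment (50 µmol/m2/s) and grew in darkness for 3 days. Each genotype was harvested without further light, following 1 h of far-red light (FR; 0.5 µmol/m2/s), or following 24 h of FR (5 µmol/m2/s), with 3 replicates lettered A, B and C in each of the 6 groups. RNA came from whole seedlings, and 100 ng of total RNA was amplified for each array. Duration, fluence rate and seedling age changed together at 24 h and cannot be told apart. The labels do not describe the mutant alleles, and no probe set was assigned to PIF4 or PIF5, so the genotype labels were not checked on these genes.

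Seedlings that germinate underground elongate in darkness and keep the light programme off. The ubiquitin ligase of COP1 and the SPA proteins removes the bZIP factors HY5 and HYH at the protein level in darkness, while the PIF factors, which are bHLH proteins, promote elongation. Light is sensed in the far-red range by phytochrome A, which enters the nucleus with FHY1 and FHL, restrains COP1 and brings about the loss of PIF proteins. HYH then accumulates with its close relative HY5, forms dimers with it, and acts in part redundantly with it on flavonoid and other light-induced genes. The arrays measure HYH transcript and give no protein level. In whole seedlings, fewer cells of a type and less RNA per cell cannot be told apart.

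All values are log2 signal intensities as the authors deposited them, and a difference is the group named first minus the other, on this log2 scale. Wild type dark replicate C stood apart, with a median over probe sets of 6.16, where the other 17 arrays lay between 5.60 and 5.88. Replicates correlated at 0.967 to 0.997. The 27 bacterial controls were taken as unspiked, and so as the level of probe sets with no target, which was not checked. They had a mean of 3.67 on wild type dark replicate C and of 3.09 to 3.37 on the other 17 arrays. RCA, the Rubisco activase of green tissue, had group means of 10.99 to 12.55, while EXPA7, an expansin of root hairs, stayed close to the controls with 3.31 to 3.73. The labels do not state that replicates were separate cultures, so each p-value rests on the spread among these samples alone, and that spread may be technical.

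HYH transcript was low in darkness in both genotypes, highest after 1 h of FR in pif4pif5, and similar in the remaining far-red groups. In pif4pif5 the signal was 4.94, 4.91 and 4.81 in darkness, 6.64, 6.64 and 6.07 after 1 h of FR, and 5.61, 5.29 and 5.97 after 24 h of FR. In wild type it was 3.43, 4.43 and 4.63 in darkness, 5.82, 5.77 and 5.83 after 1 h, and 5.86, 5.80 and 5.58 after 24 h (replicates A, B and C in this order). No dark array of either genotype reached the lowest far-red array. The 3 mutant arrays at 1 h lay above all the others, the lowest of them (6.07) just above mutant replicate C at 24 h (5.97).

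**Figure D1:**
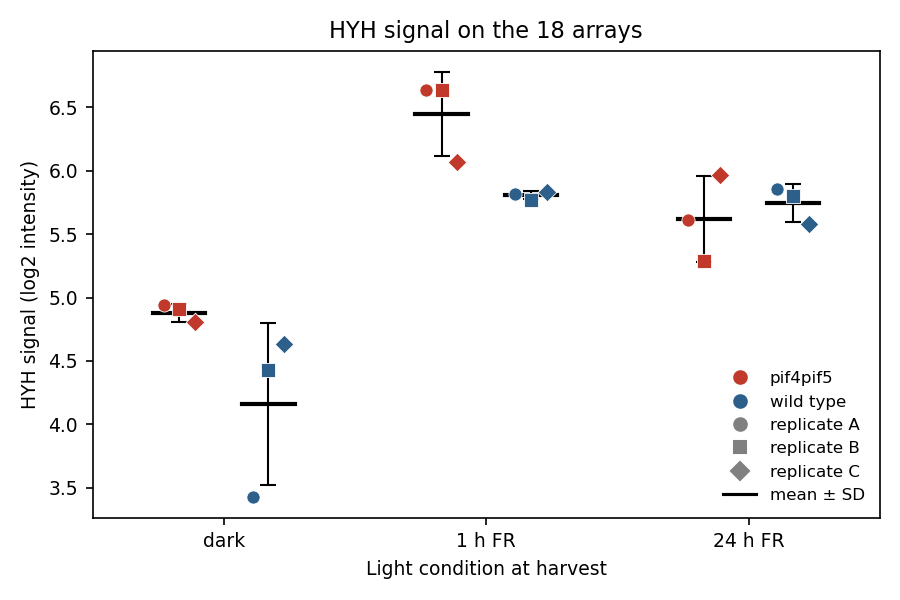
HYH signal (log2 intensity) on each array by light condition, with pif4pif5 in red to the left of wild type in blue, and symbols for replicates A, B and C. Horizontal lines are group means and bars are 1 SD (n = 3). The dark arrays lie between 3.43 and 4.94, and the far-red arrays between 5.29 and 6.64.

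Ordered by their means, the groups were pif4pif5 at 1 h (6.45 ± 0.33), wild type at 1 h (5.81 ± 0.03), wild type at 24 h (5.75 ± 0.15), pif4pif5 at 24 h (5.62 ± 0.34), pif4pif5 in darkness (4.88 ± 0.07) and wild type in darkness (4.16 ± 0.64; SD, n = 3 each). None of the neighbours in this order differed past the threshold of an adjusted p of 0.05. The arrays of pif4pif5 and wild type at 1 h did not overlap, nor did those of pif4pif5 at 24 h and in darkness, nor those of the genotypes in darkness. Wild type at 1 h, wild type at 24 h and pif4pif5 at 24 h overlapped.

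The spread of HYH differed among the groups. In wild type darkness replicate A (3.43) lay well below B (4.43) and C (4.63), and 8.67% of all probe sets had a larger SD in that group. Its median SD over all probe sets was 0.31, where the other groups had 0.11 to 0.18. In pif4pif5 at 1 h replicate C (6.07) lay below A and B (both 6.64), and 6.90% of probe sets had a larger SD there. In wild type at 1 h the 3 replicates ran only from 5.77 to 5.83, and 93.9% of probe sets had a larger SD. The main fit takes the same spread of HYH for all groups.

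The dark signal was close to background. HYH lay 0.31, 1.06 and 0.96 above the mean of the unspiked controls on wild type dark replicates A, B and C, and 1.51 to 3.51 above it on the other arrays. It exceeded the highest of these controls on 0 of 6 dark arrays and on 12 of 12 far-red arrays. How far background compresses the folds against darkness was not tested.

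After 1 h of FR the HYH transcript rose in both genotypes by similar amounts. In pif4pif5 it averaged 6.45 after 1 h and 4.88 in darkness, a rise of 1.57 (SE 0.24, 95% interval 1.06 to 2.08, 2.97-fold, limma adjusted p = 0.00156). The arrays of the mutant did not overlap, with a gap of 1.14 between the lowest 1 h array and the highest dark array. In wild type it averaged 5.81 after 1 h and 4.16 in darkness, a rise of 1.65 (SE 0.24, interval 1.14 to 2.16, 3.13-fold, adjusted p = 0.000914), with a gap of 1.15.

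Over all probe sets, 0.462% were called higher at 1 h in pif4pif5 and 0.545% in wild type, where called means an adjusted p under 0.05. Groups lay apart with the light-treated arrays higher for 4.17% of probe sets in pif4pif5 and 2.26% in wild type. Among single-gene probe sets called higher, the rise of HYH was number 9 of 25 in the mutant and number 7 of 33 in wild type. Over all probe sets the change had a median of -0.07 in pif4pif5 and of -0.12 in wild type.

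The difference between the 1 h responses of the genotypes was -0.08 (mutant minus wild type, interval -0.80 to 0.64, adjusted p = 1). As a ratio of the mutant's fold to that of wild type, this interval runs from 0.575 to 1.56. This comparison called 0 of 22746 probe sets. The sign depended on single arrays: the difference was 0.29 without wild type dark replicate A and 0.11 without pif4pif5 1 h replicate C.

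Without wild type dark replicate A the 1 h rise in wild type was 1.28 (adjusted p = 0.00169). A fit on the 6 wild type arrays of this comparison alone left the value at 1.65 with an adjusted p of 0.0928. Averaged over the genotypes, HYH was 1.61 higher after 1 h than in darkness, with p = 0.005 in an exact two-sided permutation test within genotype, the smallest that its 400 arrangements allow. The 4 exact tests on HYH were adjusted together, which gave 0.01 for this one. This adjustment does not cover the choice of HYH among all probe sets.

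After 24 h of FR the HYH difference against darkness missed the threshold in pif4pif5 and passed it in wild type, and the difference between these responses was not called. In pif4pif5 HYH averaged 5.62 after 24 h and 4.88 in darkness, a difference of 0.74 (SE 0.24, interval 0.23 to 1.25, 1.67-fold) that missed the threshold (adjusted p = 0.0571). The groups lay apart by 0.35, as they did with the 24 h arrays higher for 11.2% of probe sets, and 4.24% were called higher and 7.21% lower. The call depended on the processing: quantile normalization gave 0.86 (adjusted p = 0.0079) and a shift of the arrays to one median gave 0.89 (0.012).

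In wild type HYH averaged 5.75 after 24 h and 4.16 in darkness, a rise of 1.58 (SE 0.24, interval 1.07 to 2.09, 3.00-fold, adjusted p = 0.000215), with a gap of 0.96 between the groups. Of all probe sets, 4.48% were called higher in this comparison, the groups lay apart upwards for 5.81%, and HYH was number 82 of 497 among the single-gene probe sets called higher. The value was 1.22 without wild type dark replicate A (adjusted p = 0.000561). The difference between the 24 h responses, mutant minus wild type, was -0.84 (SE 0.34, interval -1.56 to -0.12, unadjusted p = 0.0243, adjusted p = 0.84). Only 0.0132% of probe sets were called in it, and the value was -0.48 without wild type dark replicate A. Averaged over the genotypes, the 24 h arrays were 1.16 above the dark ones (exact permutation p = 0.005, adjusted over the 4 tests 0.01).

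From 1 h to 24 h the transcript fell in pif4pif5, while wild type showed no detectable difference. The mutant averaged 5.62 at 24 h and 6.45 at 1 h, a difference of -0.83 (SE 0.24, interval -1.34 to -0.32, adjusted p = 0.032), and its arrays lay 0.11 apart. Of all probe sets, 6.85% were called lower in this comparison and 16.5% had 24 h arrays all below the 1 h arrays. The call was lost without 1 h replicate A (adjusted p = 0.131) or B (0.121), and without 24 h replicate A (0.0769) or B (0.148), with differences of -0.66 to -0.83.

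In wild type the 24 h and 1 h means were 5.75 and 5.81, which differ by -0.06 (interval -0.57 to 0.45, adjusted p = 0.948), and the arrays overlapped, where 3.4% of probe sets were called lower. The mutant minus wild type difference of these changes was -0.77 (interval -1.49 to -0.05, adjusted p = 1), where 0.0044% of probe sets were called. Averaged over the genotypes the change was -0.45 (exact permutation p = 0.04, adjusted 0.04).

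**Figure D2:**
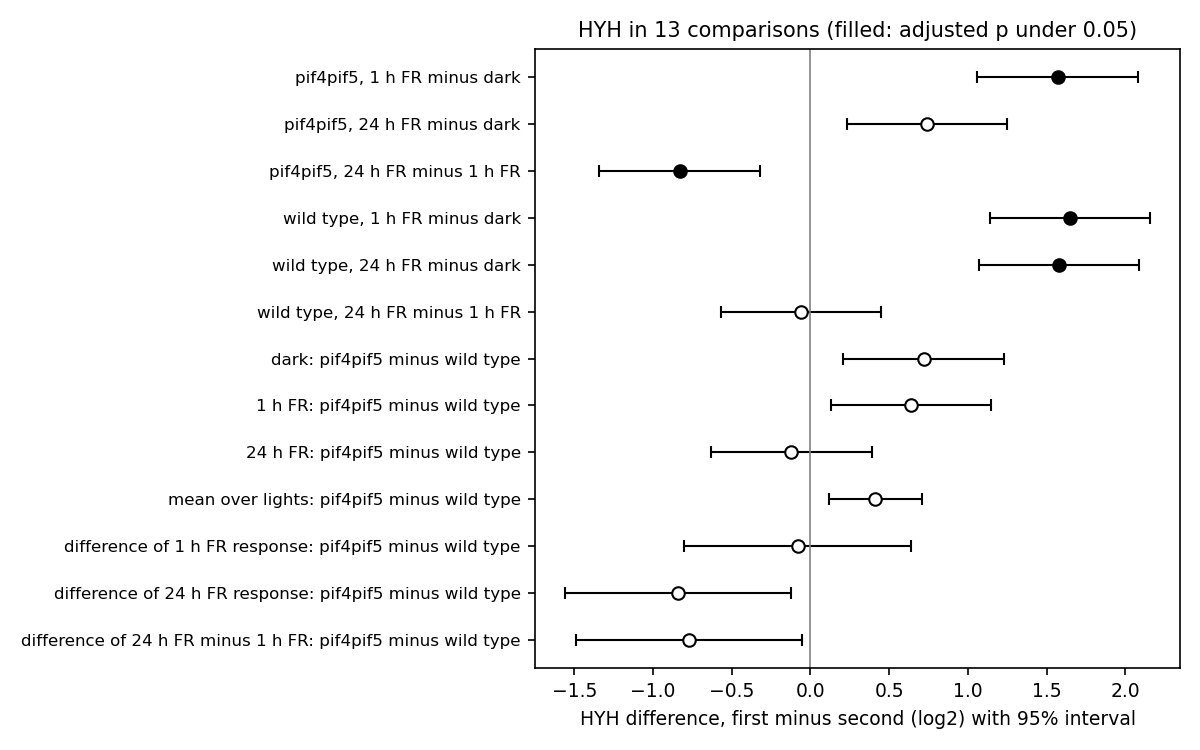
Difference of HYH (log2, first-named group minus second) in the 13 comparisons with 95% intervals from the fit over all 18 arrays. Filled points passed an adjusted p of 0.05 over all probe sets. Both rises at 1 h, the wild type rise at 24 h and the mutant fall between 1 h and 24 h passed.

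The mean HYH signal was higher in pif4pif5 than in wild type in darkness and at 1 h and close to it at 24 h, and none of these differences passed the test over all probe sets. In darkness the mutant averaged 4.88 and wild type 4.16, a difference of 0.72 (interval 0.21 to 1.23, 1.65-fold, unadjusted p = 0.00822, adjusted p = 0.526). The 3 mutant arrays lay above the 3 wild type arrays by at least 0.18, an arrangement found for 2.23% of probe sets, while 0.0264% were called in either direction. Without wild type dark replicate A the difference was 0.36, and without replicate C it was 0.95.

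At 1 h the mutant averaged 6.45 and wild type 5.81, a difference of 0.64 (interval 0.13 to 1.15, 1.56-fold, unadjusted p = 0.0161, adjusted p = 0.884). The arrays lay apart by 0.25, as they did with the mutant higher for 7.52% of probe sets, and 0.0264% were called. A fit that weights arrays by their quality called the difference, at 0.68 (adjusted p = 0.0179). At 24 h the means were 5.62 in the mutant and 5.75 in wild type, the difference was -0.12 (interval -0.63 to 0.39, adjusted p = 0.964), and the arrays overlapped. In that comparison 0.365% of probe sets were called.

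With equal weight on the 3 light conditions, the mutant exceeded wild type by 0.41 (SE 0.14, interval 0.12 to 0.71, 1.33-fold). This had an adjusted p of 0.218 over all probe sets, of which 1.24% were called. The exact permutation test of this single value within light conditions gave p = 0.028 over 8000 arrangements, and 0.0373 when adjusted over the 4 tests. HYH was chosen with earlier results of these data known, which the adjustment over 4 tests does not cover. The mean difference was 0.29 without wild type dark replicate A (exact permutation p = 0.0445) and 0.49 without replicate C (0.0155).

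**Figure D3:**
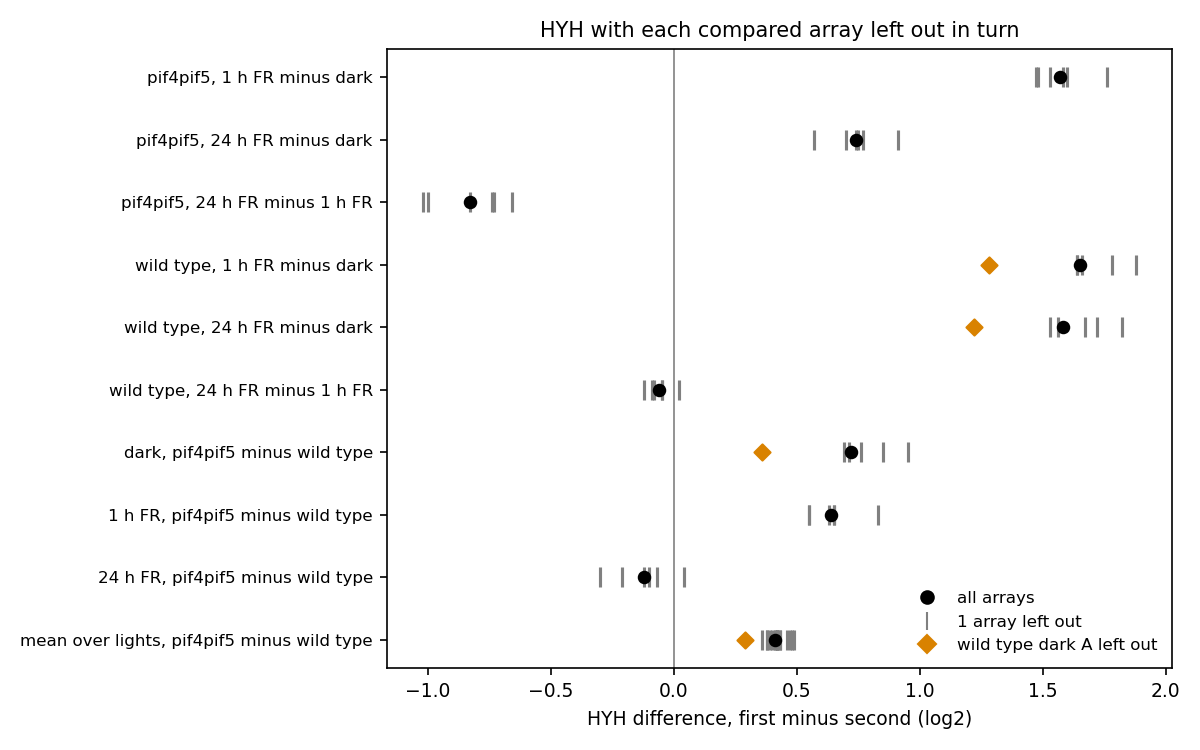
Difference of HYH (log2, first-named group minus second) in 10 comparisons with all arrays (black), with each array of the comparison left out in turn (grey ticks) and without wild type dark replicate A (orange). Without that array the rises in wild type shrink to 1.28 and 1.22 and the dark difference between the genotypes to 0.36.

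Most genes of the light pathway around HYH had no probe set assigned to them alone in the platform's table. That table named no gene for 8730 of the 22746 probe sets tested, and whether any of these measure pathway genes was not tested. Of 86 other genes listed as receptors, phytochrome A signalling, COP1 and DET1 repressors, PIF factors, B-box factors, HY5 relatives and known HY5 or HYH targets, 7 had a probe set that named them alone. HY5 and the photoreceptors were among the genes not analysed here. The 7 were FHL, CUL4 and 5 listed targets, UGT78D2, AT1G70000, CHIL, UGT84A1 and SWEET11.

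Upstream of HYH, FHL carries phytochrome A into the nucleus. Its signal in pif4pif5 was 6.11, 6.03 and 6.20 in darkness, 5.65, 5.19 and 5.48 at 1 h, and 5.02, 4.60 and 4.44 at 24 h. In the mutant the 24 h arrays were all below the dark arrays, as for 20.5% of probe sets, and all below the 1 h arrays, as for 16.5%. Against darkness FHL so moved opposite to HYH, whose own mutant difference of 0.74 at 24 h was not called (adjusted p = 0.0571). The fall of FHL against darkness was 1.43 on the log2 scale in the mutant (adjusted p = 0.00161). In wild type its difference of -0.73 did not pass (adjusted p = 0.1). The wild type dark arrays (6.56, 5.37 and 6.88) overlapped the 24 h arrays (5.55, 5.84 and 5.22) through dark replicate B. The difference between these responses, mutant minus wild type, was -0.7 and not called (adjusted p = 0.871). CUL4, the cullin on which COP1 ligases are built, stayed between 8.83 and 9.11 in its group means and was called in no comparison.

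Among the targets, UGT78D2, which adds glucose to flavonols and anthocyanidins, ran most like HYH. Its signal in pif4pif5 was 5.77, 5.92 and 5.82 in darkness, 7.85, 7.87 and 7.08 at 1 h, and 6.88, 6.96 and 6.80 at 24 h. In wild type it was 5.27, 6.11 and 5.62, then 7.24, 7.32 and 7.18, then 6.70, 6.46 and 6.91. Dark arrays were the lowest and 1 h arrays the highest in each genotype, without overlap. Of all probe sets, 16.5% in pif4pif5 and 14.2% in wild type had 24 h arrays all below the 1 h arrays. The 24 h arrays were all above the dark arrays for 11.2% and 5.81%, and the 1 h arrays for 4.17% and 2.26%. The mutant's 1 h replicate C was low for UGT78D2 as it was for HYH. That was not particular to them: RCA had 11.84, 11.72 and 11.25 in that group, while CUL4 was highest in C (8.69, 8.84 and 8.95). Without this array 0.229% of probe sets were called between the genotypes at 1 h, and 0.0264% with all arrays.

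The rise of UGT78D2 at 1 h was 1.76 in pif4pif5 (adjusted p = 9.37e-05) and 1.58 in wild type (adjusted p = 0.000305), close to those of HYH. At 24 h its differences against darkness were 1.04 in the mutant and 1.02 in wild type, both called (adjusted p = 0.00228 and 0.00301). From 1 h to 24 h it changed by -0.72 in the mutant and by -0.56 in wild type, where HYH had -0.83 and -0.06. The wild type change of UGT78D2 was not called (adjusted p = 0.134), nor was the difference between its changes (-0.17, mutant minus wild type). The mutant change was called (adjusted p = 0.0298), a call lost in 9 of 15 alternatives. These include quantile normalization (0.0708) and the fits without 1 h replicate A (0.147) or B (0.14), or without any 1 of the 24 h replicates (0.0567 to 0.0886).

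AT1G70000 rose at 1 h in pif4pif5 by 1.15 (adjusted p = 0.0214), and its wild type difference of 1.00 missed the threshold (adjusted p = 0.0556). Leaving out any 1 of 5 of the 6 compared mutant arrays ended the mutant call, with adjusted p up to 0.134. From 1 h to 24 h it changed by -0.99 in the mutant (adjusted p = 0.00899) and by -0.65 in wild type (adjusted p = 0.114). The difference between these changes, -0.33 (mutant minus wild type), was not called. At 24 h it stood 0.17 above darkness in the mutant and 0.35 in wild type, and neither difference was called.

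CHIL, a chalcone isomerase-like protein that enhances flavonoid synthesis, had 5.99, 6.29 and 4.80 at 1 h in pif4pif5, against 4.53, 4.83 and 4.41 in wild type. Replicate C of the mutant again lay lowest, within the wild type range, and the difference of 1.1 was not called (adjusted p = 0.561). UGT84A1, a glucosyltransferase of hydroxycinnamates, and SWEET11, a sucrose transporter, were called in no comparison.

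Counted over the 7 genes, 2 were called higher at 1 h in pif4pif5 (median 0.13), where 0.462% of all probe sets were, and 1 in wild type (median -0.01), where 0.545% were. At 24 h 1 was higher and 1 lower in the mutant (median 0.17), beside 4.24% and 7.21% of all probe sets, and 1 was higher in wild type (median 0.03), beside 4.48%. From 1 h to 24 h 2 were called lower in the mutant, beside 6.85% (median -0.65, against 0.05 over all probe sets), and none in wild type, beside 3.4%. None was called in the comparisons of genotypes or of their responses. Limma's smallest unadjusted p was 0.0037 in the genotype comparisons (CHIL at 1 h) and 0.04 in the 3 response comparisons. With 7 genes these shares describe the genes measured and not the pathway.

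**Figure D4:**
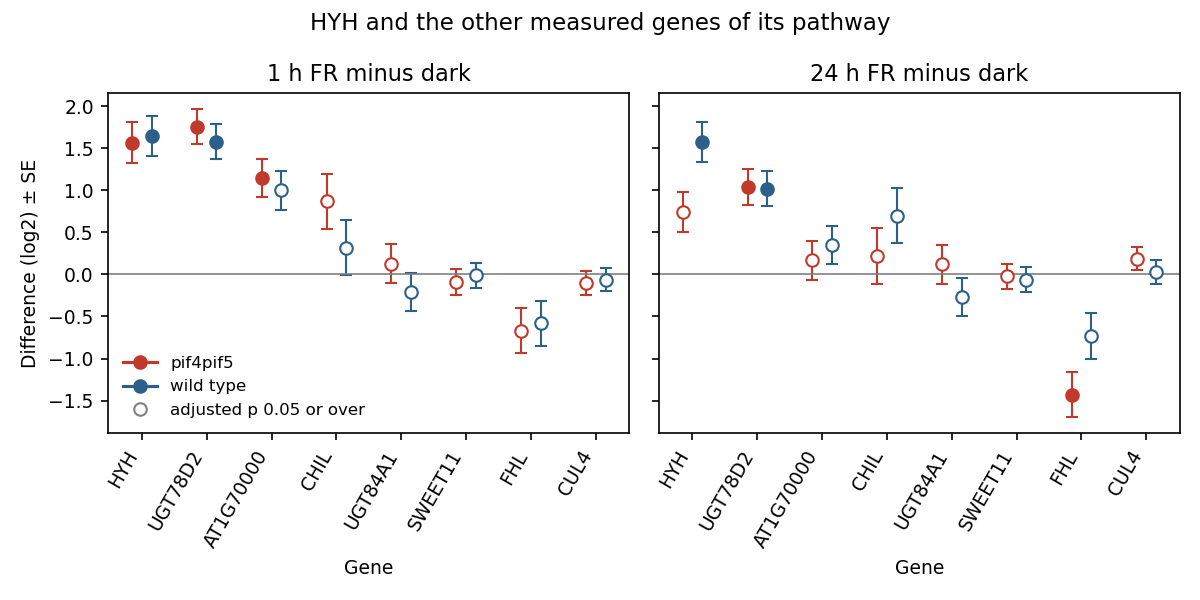
Differences of HYH and 7 other measured pathway genes (log2 ± SE) for 1 h of FR minus darkness and 24 h of FR minus darkness, with pif4pif5 in red left of wild type in blue. Filled points passed an adjusted p of 0.05. HYH and UGT78D2 stand at 1.57 to 1.76 at 1 h, and at 24 h HYH is at 0.74 in the mutant and 1.58 in wild type.

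The genes whose pattern was most like that of HYH were sought among the other 13512 single-gene probe sets by Pearson correlation over the 18 arrays. The arrays share groups and labelling, so the correlation is a description. Its median over all genes was -0.15, with -0.45 at the 5% point and 0.34 at the 95% point, 18 genes above 0.8 and 4 below -0.8. UGT78D2 was the most like HYH (r = 0.910, Spearman 0.789). AFR (AT2G24540), an F-box protein named for the attenuated far-red response of its mutant and known in phytochrome A signalling, came second (r = 0.899, Spearman 0.895, the highest Spearman value of all). AT5G15910 (0.899), AT1G66330 (0.893), AT1G13930 (0.881), AT1G64500 (0.880), AT3G56290 (0.874) and AT3G24190 (0.868) followed.

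Most of this likeness came from the 6 group means, over which the 8 genes correlated with HYH at 0.898 to 0.956. Around the group means the correlations were lower, from 0.143 for AT3G56290 to 0.779 for AT5G15910. After centring, the group means of UGT78D2, AFR and AT1G13930 lay closest to those of HYH, with root mean square differences of 0.22, 0.25 and 0.25. Of the 8 genes, 7 stayed among the first 8 after quantile normalization, 7 without wild type dark replicate C, 6 without replicate A and 4 with Spearman correlations.

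AFR had a time course close to that of HYH in the mutant. Its signal in pif4pif5 averaged 6.17 in darkness, 7.78 at 1 h and 6.65 at 24 h, and in wild type 5.85, 7.35 and 6.72. It rose at 1 h by 1.62 in pif4pif5 and 1.50 in wild type (adjusted p = 2.22e-05 and 4.93e-05). From 1 h to 24 h it changed by -1.13 in the mutant and by -0.63 in wild type, both called (adjusted p = 0.000221 and 0.0297), where HYH had -0.83 and -0.06.

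AT1G64500 and AT3G56290 had larger rises at 1 h than HYH, by 2.43 and 2.65 in the mutant and 2.50 and 2.64 in wild type, and neither was called between 1 h and 24 h. AT1G13930 had dark means of 8.52 in the mutant and 7.89 in wild type, a difference of 0.63 that was not called (adjusted p = 0.454). Its dark arrays lay apart, as they did with the mutant higher for 2.23% of probe sets. In the choice of these genes the far-red rises were used, so their counts are given only as values. At 1 h 6 of the 8 were called higher in each genotype, where 0.462% of all probe sets were in pif4pif5 and 0.545% in wild type. At 24 h 6 were called higher in the mutant, beside 4.24% of all probe sets, and 8 in wild type, beside 4.48%.

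**Figure D5:**
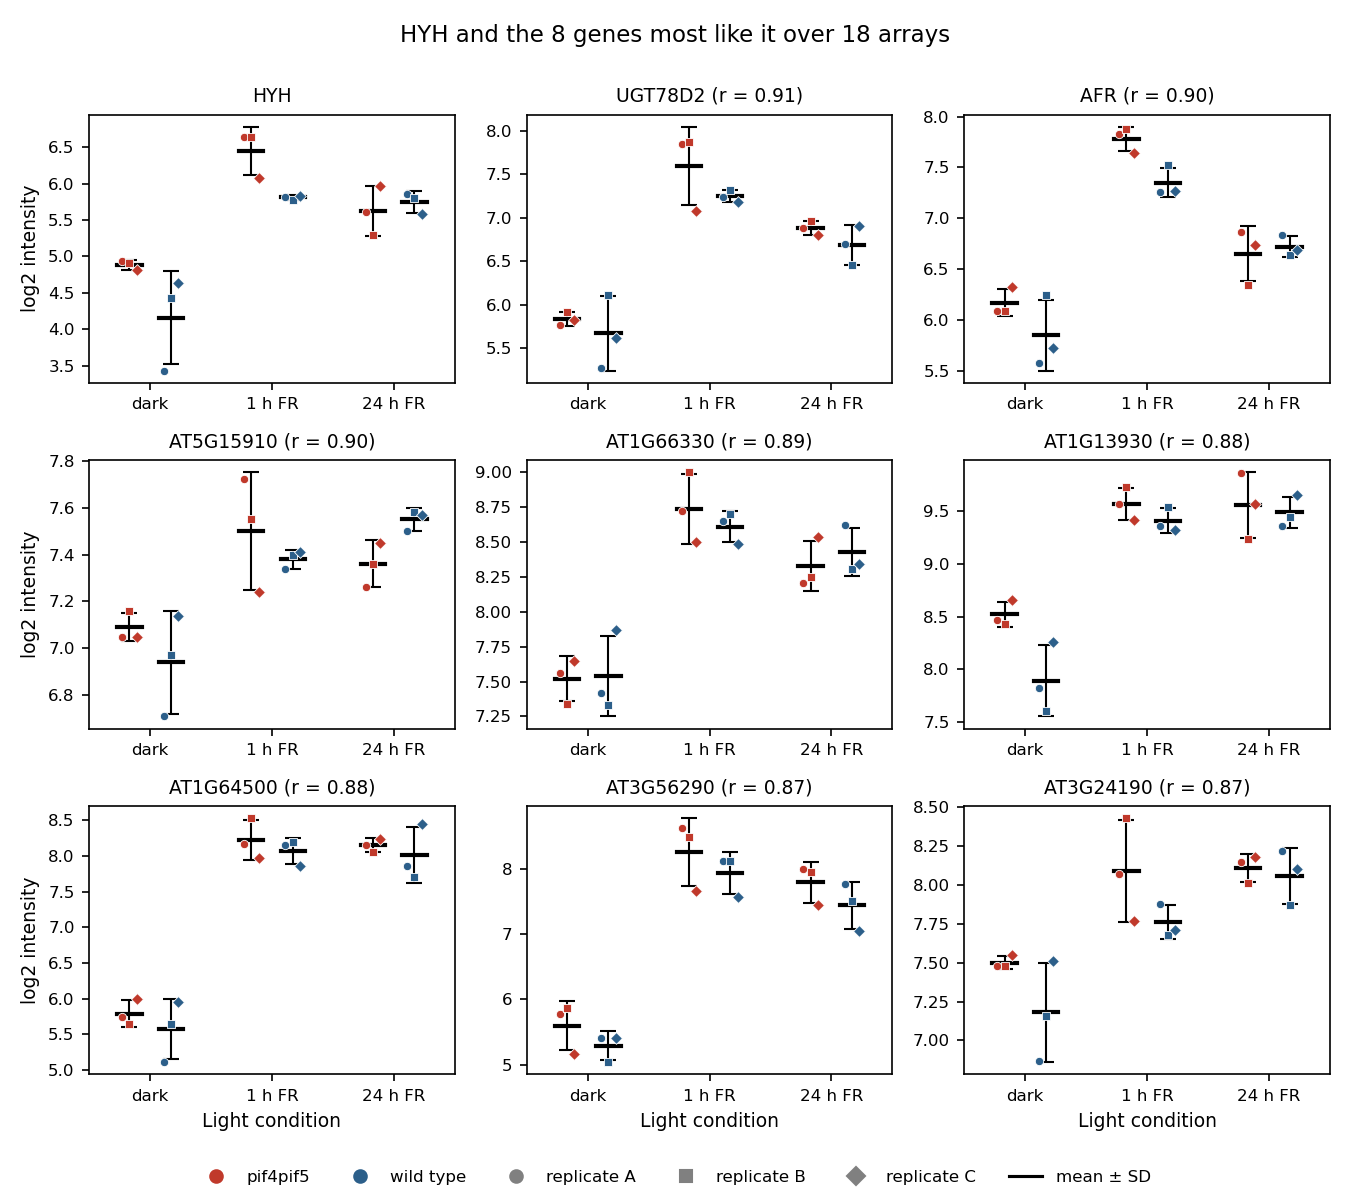
Signal (log2 intensity) of HYH and the 8 genes most like it on each array by light condition, pif4pif5 in red left of wild type in blue, with means and SD (n = 3) and the correlation with HYH over 18 arrays in each title. Vertical axes differ between panels. UGT78D2 and AFR peak at 1 h in both genotypes, and AT1G13930 and AT1G64500 are as high at 24 h as at 1 h.

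The most opposite patterns were those of ARL (r = -0.837), an ARGOS-like gene known to promote cell expansion, UGT85A2 (-0.823), a glucosyltransferase, and AT1G27210 (-0.823). ARL averaged 8.89 in darkness, 7.89 at 1 h and 7.79 at 24 h in pif4pif5, and 9.06, 8.06 and 8.10 in wild type. They were chosen on the same arrays, so their calls are given only as values: all 3 were called lower at 1 h in both genotypes, where 0.237% of probe sets were in pif4pif5 and 0.242% in wild type. In the mutant UGT85A2 lost this call in 10 of 15 alternatives (adjusted p = 0.0454 as reported) and AT1G27210 in 6 of 15.

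The neighbours of HYH on the chromosome were at background and could show no pattern. IAA31, an Aux/IAA repressor of auxin response directly beside it in the TAIR10.1 gene order, had group means of 2.68 to 2.82, below the mean of the unspiked controls on every array. AT3G17620 lies on the other side with 1 gene between, and its group means of 2.98 to 3.38 were at the level of those controls. Neither was called in any of the 13 comparisons.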

How the data were processed

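Per the submitters' processing notes, the authors made the deposited log2 intensities by robust multi-array averaging (RMA). The sources used here do not give its version, background model or probe annotation. Values were used as deposited. Of 22810 probe sets, 64 Affymetrix controls were left out and 22746 tested. The platform's table assigned 1 gene to 13513 of these, several to 503 and none to 8730. A TAIR10.1 locus was found for 13436 of the 13513.

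The main test was limma 3.58.1 (statmod 1.5.0, R 4.3.3) with a mean for each of the 6 groups, all 18 arrays and empirical Bayes moderation. Adjusted p-values are Benjamini-Hochberg values over all tested probe sets within each of 13 comparisons. Exact permutation tests took HYH alone within strata, since 3 arrays against 3 cannot go below 0.1. Precision is limited by the number of arrays. The procedure was tested on simulated data. Alternatives covered scaling, weights, variance model, the probe sets and arrays fitted, and a replicate block.

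HYH, the gene lists and the tests were chosen with earlier results of these data known. Named genes are HYH, measured list members called where HYH was called, the 8 most and 3 most negatively correlated genes, and the nearest measured gene on each side. The other list members and the bZIP genes were named after their values were seen.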

Additional observations from a re-analysis of the deposited data

How the results depend on the processing

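The rises of HYH at 1 h (both genotypes) and at 24 h (wild type) kept direction and call under every alternative run, except that a test against a 2-fold minimum left 1.57, 1.65 and 1.58 (each adjusted p = 1) and the fit on the compared groups only gave 1.65 (0.0928) for 1 h in wild type. Leaving out 1 array gave 1.47 to 1.76 for the mutant at 1 h, and 1.28 to 1.88 and 1.22 to 1.82 for wild type at 1 h and 24 h. The mutant difference at 24 h passed after quantile normalization (0.86), a shift to one median (0.89), array weights (0.76, adjusted p = 0.00314) and in the fit on the compared groups only (0.74, 0.0257). It was 0.57 to 0.91 with 1 array left out, and passed without 24 h replicate B (0.91, 0.0403). The mutant fall from 1 h to 24 h was -0.83 and not called against the 2-fold minimum, and -1.02 to -0.66 with 1 array left out. Array weights called the genotype difference at 1 h (0.68) and its mean over lights (0.55, 0.0129). With 1 array left out the sign turned for 24 h minus 1 h in wild type (-0.12 to 0.02), without 24 h replicate C (0.02), for the genotypes at 24 h (-0.30 to 0.04), without mutant 24 h replicate B (0.04), and for the difference of 1 h responses (-0.31 to 0.29), without wild type dark replicate A (0.29) or mutant 1 h replicate C (0.11). The cause was not tested. Whether replicate letters pair the arrays is not settled by these values. Correlations of deviations between arrays of the same letter ran from -0.22 to 0.45, and no comparison had every pair over 0.1. An array correlated best with its own letter in 28 of 54 matchings between compared groups, more often than the 18 that 1 in 3 gives. With the letter as a replicate block HYH gave 1.57 (adjusted p = 0.00263), 1.65 (0.00154), 1.58 (0.000354), 0.74 (0.0631) and -0.83 (0.0359), and no HYH call changed. Scaling moved the median of all probe sets by over 0.1 in wild type at 1 h, to -0.01 with quantile normalization, where HYH rose by 1.74, and in the mutant at 24 h, to 0.11 with a shift to one median. The number of calls over all probe sets varied with the setting, from 179 to between 22 (2-fold minimum) and 1685 (without wild type dark replicate A) for 1 h in wild type. It varied between 18 and 474 for the mutant at 1 h (159 as reported), 137 and 4607 at 24 h in the mutant (2605), 137 and 3814 at 24 h in wild type (2559), and 73 and 5217 for the mutant's fall (2588). Between the genotypes it was 0 to 702 in darkness (6 as reported), 1 to 425 at 1 h (6), 3 to 225 at 24 h (83) and 1 to 568 over lights (282). A filter on dim probe sets gave no value, since the mean of HYH over all arrays (5.45) lay under the median probe set (5.76). Exact tests without wild type dark replicates A or C, and the likeness without replicate A, were chosen after seeing the data. The dark signal lies close to background.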

Other observations

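Other bZIP genes, found by symbol or synonym after the data had been seen, had 22 probe sets of their own. None of the 22 was called higher in any of the 13 comparisons by limma, and shares of 0.462% to 4.48% of all probe sets called higher against darkness give about as few. At 1 h of FR their changes ran from -0.67 (EEL) to 0.44 (bZIP58) in pif4pif5, and from -0.86 (EEL) to 0.28 in wild type (FD, a bZIP partner of the flowering signal FT), where HYH had 1.57 and 1.65. The medians of the 22 were -0.19 and -0.23, against -0.07 and -0.12 over all probe sets.

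Several of them were called lower. EEL, a bZIP factor known from embryos, averaged 4.76 after 24 h of FR and 5.94 in darkness in pif4pif5, a change of -1.18 (adjusted p = 0.000199), and 5.06 and 6.65 in wild type, a change of -1.59 (9.09e-06). In wild type it was already called at 1 h (-0.86, adjusted p = 0.0269). bZIP44 changed by -1.74 at 24 h in pif4pif5 (adjusted p = 6.77e-05) and by -1.42 in wild type (0.000519). In pif4pif5 bZIP52 (-1.0) and AT1G06070 (-0.48) were also called lower at 24 h, which makes 4 of 22 in the mutant and 2 of 22 in wild type, where 7.21% and 6.77% of all probe sets were called lower. Averaged over the light conditions, EEL was 0.51 lower in the mutant (5.32 against 5.83 in wild type, adjusted p = 0.0182) and bZIP52 was 0.46 lower (6.39 against 6.85, adjusted p = 0.045), where 0.4% of probe sets were called lower. HYH differed there by 0.41 in the other direction and was not called.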
